A study of Rattus norvegicus with 56 samples.

Results

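The genes Arc, Npas4, Homer1, Nptx2, Rgs2, Plk2 and Sik1 are transcripts that neurons are known to switch on when they fire, and they were followed through a time course of repetitive transcranial magnetic stimulation (rTMS) in cultured rat hippocampal neurons. The members were found by the RefSeq accession of each array probe, and each of the 7 genes had 1 probe, among 16581 genes with a symbol on the array and 13893 of these that were tested. Cultures came from hippocampi of Sprague-Dawley rat embryos of embryonic day 18 and were kept in Neurobasal medium with B27 supplement. They received rTMS at 1 Hz, intermittent theta burst stimulation (iTBS, short bursts of pulses) or sham, in which the coil was kept at a distance from the dish, and RNA was collected 0, 2, 8, 24 or 48 h after the end of the session. Untreated control cultures, which had no stimulation of any kind, were collected at 0 h only. The labels name no genetic change and no drug in any group. The dishes were described as neuronal cultures, with no sort of the cells, and markers of neurons and of glia were both above background, so each array reads a mixture of cells.

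Npas4 is a transcription factor that is switched on by calcium entry into neurons and acts on the genes of synapses. The other members are effectors. Arc takes part in removing AMPA-type glutamate receptors from the synapse, Homer1 is a scaffold that links group I metabotropic glutamate receptors to the postsynaptic density, and Nptx2 is a secreted pentraxin that gathers AMPA receptors. Rgs2 shortens the signal of G proteins, Plk2 is a kinase of homeostatic synaptic weakening, and Sik1 is a kinase that restrains CREB coactivators. Several of these genes are known targets of the factor CREB, which binds the cyclic AMP response element, and in hippocampus they are widely used as signs of recent activity.

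Arrays in 16 groups held 2 (1 group), 3 (7 groups) or 4 (8 groups) samples, and 55 of 56 arrays were used. The array of 1 Hz at 2 h, replicate 2, whose grid the scanner software had marked as badly placed, was left out. Between 66.1% and 81.8% of spots were well above background on the 55 arrays, no spot was saturated, and depth in the sense of sequencing does not apply, so the number of arrays limits the precision. Levels are scaled log2 signals, set so that each array averages 0 over its probes. A difference of 1 is close to a 2-fold change, and the level of 1 gene cannot be set against that of another. The labels number the samples, and the numbers form 4 series, here called A (numbers 1 to 18), B (22 to 36), C (37 to 54) and D (numbers with the letter D, 1 to 15), each of which runs through the arms and times in the same order. What a series is was not given in the sources used here. Deviations of arrays from their group means correlated by a mean of 0.398 within a series and by -0.134 between series. Series A lacked 1 Hz at 0 and 2 h and sham and iTBS at 8 and 24 h, series B lacked 1 Hz at 2 and 24 h and sham at 48 h, and controls were present in A and C only. Nothing says that the samples of a group came from separate animals or preparations, so p-values measure the spread between these samples, which may be technical. A test passed where the Benjamini-Hochberg adjusted p of limma, taken over all 35699 probes tested, was under 0.05.

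The 4 members that passed as lower at 48 h are shown here by the 250 bases before their gene start, from RefSeq on assembly GRCr8, since their level moved the same way. Capitals mark matches, on either strand, to the cyclic AMP response element TGACGTCA, its core TGACG, the site TCGTG bound by Npas4 with its partners, and TATAAA.
Plk2, chr2:43702286-43702535, + strand: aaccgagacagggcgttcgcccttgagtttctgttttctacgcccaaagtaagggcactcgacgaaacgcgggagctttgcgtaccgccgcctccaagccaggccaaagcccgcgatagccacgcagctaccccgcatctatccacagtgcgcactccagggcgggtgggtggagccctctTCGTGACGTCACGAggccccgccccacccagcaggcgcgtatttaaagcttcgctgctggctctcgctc
Rgs2, chr13:58352667-58352916, - strand: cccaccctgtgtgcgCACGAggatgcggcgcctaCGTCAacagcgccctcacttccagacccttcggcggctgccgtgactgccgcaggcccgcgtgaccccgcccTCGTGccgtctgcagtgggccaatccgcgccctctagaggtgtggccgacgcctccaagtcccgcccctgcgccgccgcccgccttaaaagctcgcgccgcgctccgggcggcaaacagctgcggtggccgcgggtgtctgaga
Sik1, chr20:9958647-9958896, - strand: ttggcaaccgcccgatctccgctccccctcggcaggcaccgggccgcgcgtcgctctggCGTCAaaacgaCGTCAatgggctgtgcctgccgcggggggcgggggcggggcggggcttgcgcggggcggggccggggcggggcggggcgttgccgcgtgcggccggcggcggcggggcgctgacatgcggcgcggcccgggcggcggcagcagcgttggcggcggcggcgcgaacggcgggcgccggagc
Homer1, chr2:26278762-26279011, + strand: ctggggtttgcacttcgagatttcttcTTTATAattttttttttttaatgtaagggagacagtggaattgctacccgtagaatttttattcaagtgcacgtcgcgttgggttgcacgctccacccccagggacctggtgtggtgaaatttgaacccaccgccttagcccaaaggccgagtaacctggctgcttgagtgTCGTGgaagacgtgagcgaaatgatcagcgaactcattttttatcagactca
Promoters of 6 members were in the table, and Arc's promoter was not used here. The full element was present in the 300-base window of Plk2, where it contains a pair of overlapping core sites and is flanked by TCGTG on both sides, and 1.83% of 33469 rat promoter windows of the same length held it. The core was present in Plk2, Rgs2, Sik1 and Nptx2, 4 of 6 members, against 21.2% of all windows. TCGTG was present in Plk2, Rgs2 and Homer1, against 17% of all windows, and TATAAA in Homer1, against 14.2%. The CArG box, bound by serum response factor, was in 1.64% of all windows and had no match in the members. These matches are letters in a window and not measured binding.

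Arc, Nptx2 and, less widely, Npas4, Rgs2 and Plk2 differed between the series of sample numbers. Arc ranged from 3.85 to 5.91 in series A (mean 4.93 ± 0.69, SD, n = 11) and from 4.21 to 6.03 in B (4.86 ± 0.53, n = 12). It ranged from 1.54 to 2.73 in C (2.09 ± 0.35, n = 17) and from 2.27 to 3.36 in D (2.82 ± 0.28, n = 15). Every array of A and B, whatever its arm and time, was above every array of C and D. With group and series in the model, Arc was 2.78 higher in A than in C (SE 0.16, 6.87-fold, adjusted p = 6.66e-17) and 2.10 higher in A than in D (SE 0.17, adjusted p = 3.16e-13). Series A and B differed by 0.04 (95% interval -0.32 to 0.40), and C was 0.68 lower than D (SE 0.14, adjusted p = 0.000109).

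**Figure D1:**
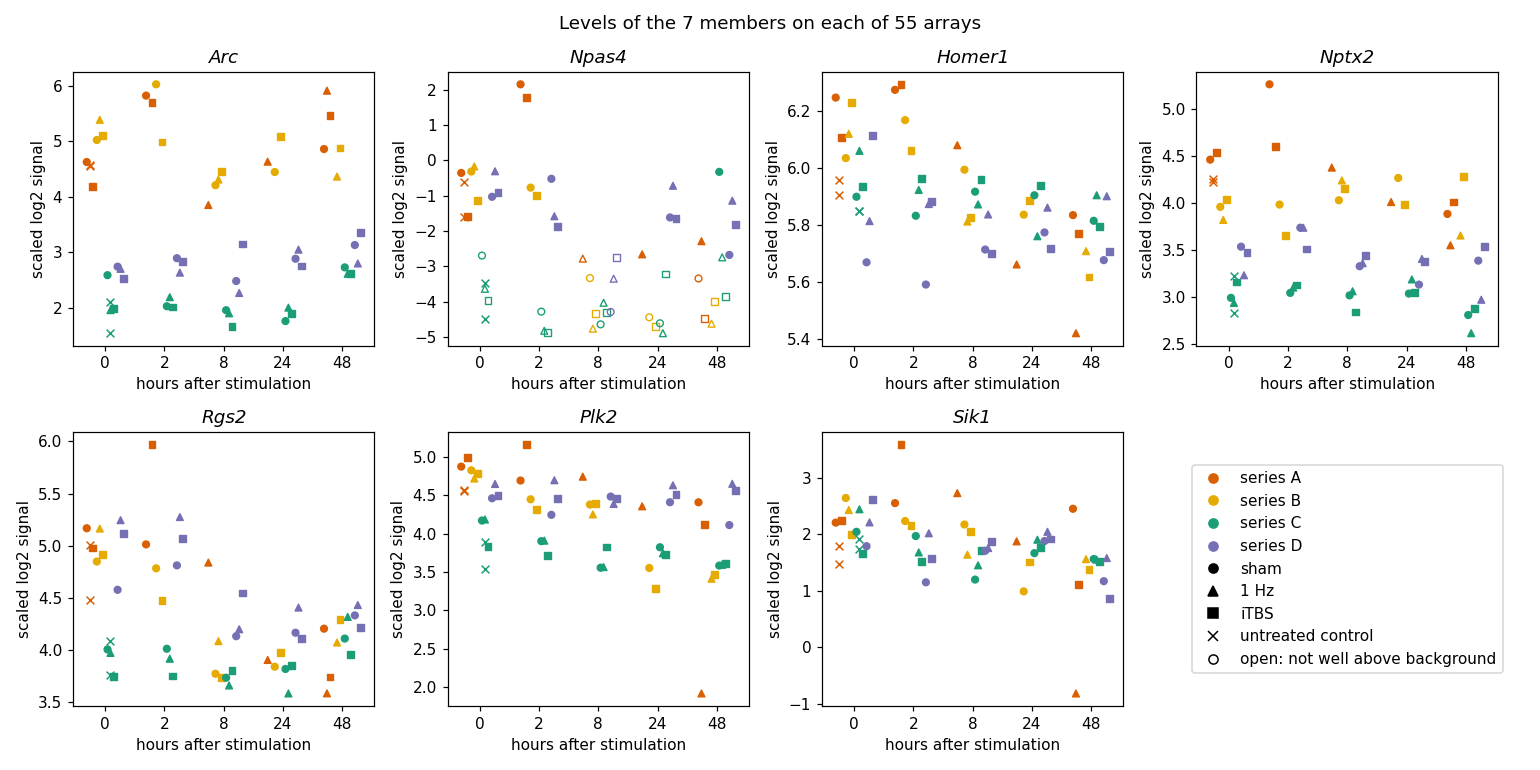
Scaled log2 signal (vertical axis) of each member on each of the 55 arrays, by hours after stimulation (horizontal axis), coloured by series, with a marker for each arm and open markers where the probe was not well above background. In Arc the series A and B points lie at 3.85 or higher and the C and D points at 3.36 or lower, while the sham, 1 Hz and iTBS markers lie among each other.

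Nptx2 showed the same split of A and B from C. Its levels ran from 3.55 to 5.26 in A, 3.66 to 4.28 in B, 2.62 to 3.22 in C and 2.97 to 3.74 in D. Series C lay wholly below A and B, and D overlapped with each of the other series. Nptx2 was 1.30 higher in A than in C (SE 0.09, adjusted p = 2.51e-14) and 0.59 higher in B than in D (SE 0.09, adjusted p = 6.93e-07), and it was the member with a difference between A and B that passed (0.29, SE 0.10, adjusted p = 0.0271). That call was lost on leaving out any of 6 arrays, sham at 0 h replicate 2, sham at 2 h replicates 1 and 3, iTBS at 0 h replicate 3 or iTBS at 2 h replicates 1 and 3, each on its own, with a value down to 0.19 and an adjusted p up to 0.109.

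Npas4 was dim, and its probe was well above background on 26 of 55 arrays, namely 8 of 11 in A, 5 of 12 in B, 1 of 17 in C and 12 of 15 in D. The single array of C above background was sham at 48 h replicate 2, at -0.33, while the others of C lay between -4.89 and -2.69. In the fit Npas4 passed as higher in A than in C (adjusted p = 0.00132) and as lower in C than in D (adjusted p = 0.000372). Since C lay at background on all arrays but 1, no size is given for these differences. The probes of the other 6 members were well above background on all 55 arrays.

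By median, Rgs2 and Plk2 were lowest in series C. Rgs2 had medians of 4.84 in A, 4.19 in B, 3.85 in C and 4.43 in D, and it was 0.71 higher in A than in C (SE 0.15, adjusted p = 0.000267). Plk2 ran from 3.54 to 4.18 in C and from 4.11 to 4.70 in D, and the difference of C from D was -0.71 (SE 0.16, adjusted p = 0.000203). Its lowest arrays in A (1.92) and B (3.29) lay below those of C. A was higher than C (0.64, adjusted p = 0.00315), while B against C did not pass (0.39, adjusted p = 0.0759). Medians of Homer1 were between 5.77 and 5.96 in the 4 series, and those of Sik1 between 1.68 and 2.21. Homer1 passed in A against D (0.19 higher, SE 0.07, adjusted p = 0.0316), a call lost on leaving out any of 6 arrays (adjusted p up to 0.0849), namely sham at 0 h replicates 2 and 4, sham at 2 h replicates 3 and 4, 1 Hz at 8 h replicate 1 or iTBS at 2 h replicate 3.

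In the test of any difference between series 5 of 7 members passed (Arc, Npas4, Nptx2, Rgs2 and Plk2), and 75.4% of all probes did, so that the share among the members was near the background. Homer1 (adjusted p = 0.0701) and Sik1 (adjusted p = 0.661) did not pass. Compared with C, A was higher for 5 of 7 members, against 22% of all probes called higher, and C was lower than D for 5 of 7, against 28.7% called lower. The median over the members was 0.71 for A minus C and -0.68 for C minus D, against 0.03 and -0.04 over all probes.

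The other activity-regulated genes were set beside the members. In A against C, 22% of all probes were called higher and 20.9% lower. Among 21 transcription factors of this kind, 15 were higher and 1 (Btg2, an antiproliferative regulator, -0.41) was lower in A than in C. Among those higher were Atf3, a stress-induced factor (2.31, SE 0.66, adjusted p = 0.00458), Egr2 (2.05) and Fosl1, a Fos-family factor that was well above background on 40 of 55 arrays, for which no size is given. Among 16 other activity-induced effectors, 13 were higher in A than in C, among them Dusp5, a phosphatase of ERK (2.09, SE 0.12, adjusted p = 1.35e-16), Vgf, a secreted neuropeptide precursor (2.07), and Ptgs2, well above background on 17 of 55 arrays and given with no size, and 1 was lower (Inhba, an activin subunit, -1.58). Of 36 relatives and partners of the members, 15 were higher and 6 lower, the latter a share below that of all probes. Among those higher were Nptx1, the closest relative of Nptx2, at 1.79 (SE 0.13, adjusted p = 1.98e-14) and Grm5, a receptor that binds Homer proteins, at 1.05.

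Markers of other cell types also differed between the series. The sum of the 7 oligodendrocyte markers, on the linear scale, lay between 8.34 and 24.8 in D and between 43.4 and 202 in the others. That of 7 endothelial and fibroblast markers lay between 28.4 and 46.2 in D and between 2.79 and 10.5 elsewhere, and that of 4 dividing cell markers between 2.34 and 7.80 in D and between 10.6 and 35.6 elsewhere. The 7 neuron markers summed to between 79.0 and 254 over all arrays, with overlap of all series. Of these, 4 of the 7 were higher in A than in C, against 22% of all probes. None of the markers was below background on every array. Astrocyte markers (6 genes) were lower in A than in C for 4, against 20.9% of all probes. Microglia markers (7 genes) summed to between 0.759 and 9.26 over all arrays. The part of these markers in the differences of the members was not tested. In such mixed cultures fewer cells of a type and less RNA per cell cannot be told apart.

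The question of the study was whether the protocols changed expression relative to sham. No member passed in any of the 10 comparisons of a protocol with sham at the same time. Of 70 tests of the 7 members in the limma fit of group means, 0 had an adjusted p under 0.05 and 0 an unadjusted p under 0.05, and the smallest adjusted p was 0.9998. Of all probes, 0%, 0.00280% or 0.00560% passed in these comparisons. With series as a term the counts were 0 and 0, and with each series at each time as a block they were 0 adjusted and 3 unadjusted, with a smallest adjusted p of 0.210 and at most 0.0308% of all probes passed.

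The size of the unblocked differences moved with the series. At 2 h the 1 Hz group held arrays of C and D alone, and Arc was -1.78 against sham in the fit of group means (SE 1.24), -0.57 with series as a term (SE 0.35) and -0.18 within series and time (SE 0.28). Npas4 was -2.35 (SE 1.44), -2.08 (SE 1.17) and -0.63 (SE 0.71) in the same fits. These values did not pass in any of the 3 fits. Npas4 was below background on the arrays of C at 2 h, so its sizes here in part read background.

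Sham arrays of the same series and time gave 13 matched pairs for 1 Hz and 17 for iTBS. Arc under 1 Hz was above its matched sham in 6 of 13 pairs (lowest -0.63, median -0.04, highest 1.05) and under iTBS in 7 of 17 (lowest -1.04, median -0.07, highest 0.67). Npas4 was above sham in 7 of 13 pairs under 1 Hz (median 0.14) and in 5 of 17 under iTBS (median -0.38, from -3.53 to 1.54). These counts include Npas4 pairs with both arrays below background, whose sign carries no order. Such pairs were those of C at 0, 2, 8 and 24 h and of B and D at 8 h. For iTBS they were also those of B at 24 h and of A at 48 h. Homer1 was above sham in 9 of 13 and 10 of 17 pairs, and Nptx2 in 7 of 13 and 11 of 17. Rgs2, Plk2 and Sik1 were each above sham in 8 of 13 pairs under 1 Hz, and in 8, 9 and 9 of 17 under iTBS. Pairs lay on both sides of 0 for every member and both protocols.

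**Figure D2:**
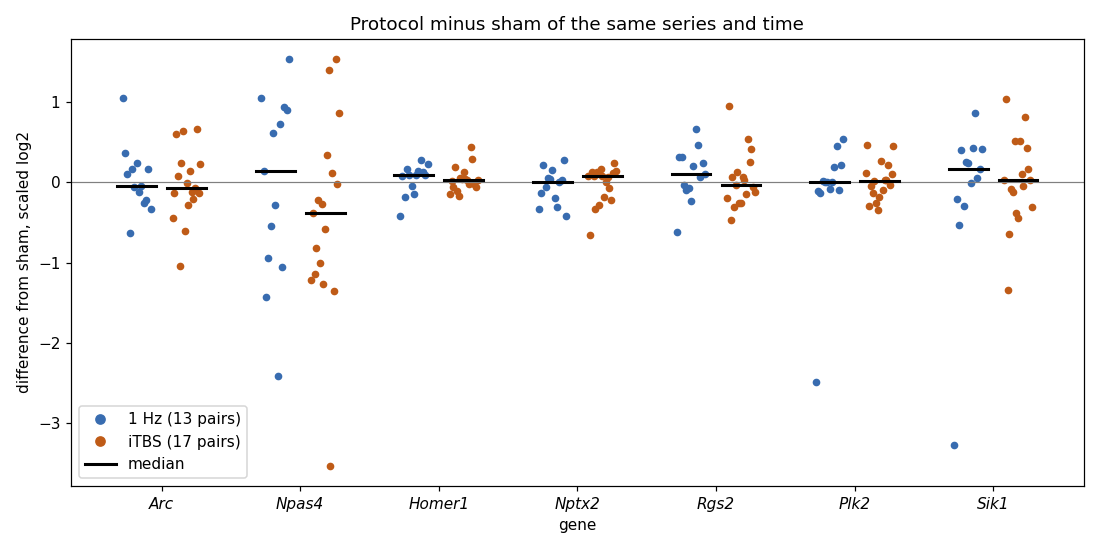
Difference of each 1 Hz (13 pairs) and iTBS (17 pairs) array from the sham array of the same series and time on the scaled log2 scale (vertical axis), by gene (horizontal axis), with the median as a black bar. Points of every gene fall above and below 0, and 1 pair of 1 Hz at 48 h in series A sits at -2.49 in Plk2 and -3.28 in Sik1.

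Averaged over the 5 times within series and time, 0 of 14 differences passed (smallest adjusted p 0.9999), and 0 were under an unadjusted 0.05. Arc was 0.03 under 1 Hz (95% interval -0.21 to 0.26) and 0.02 under iTBS (-0.19 to 0.24). Homer1 was 0.02 (-0.09 to 0.13) and 0.03 (-0.07 to 0.13), and Nptx2 was -0.07 (-0.19 to 0.04) and -0.01 (-0.12 to 0.09). Npas4 was measured least exactly, at -0.14 (-0.74 to 0.46) and -0.36 (-0.89 to 0.17), and its arrays below background enter these values. Whether the difference from sham varied with time was tested too, and the smallest adjusted p of the 14 tests was 0.434, for Nptx2 under iTBS.

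The 3 tests within series and time with an unadjusted p under 0.05 were Nptx2 under 1 Hz at 48 h (-0.34, SE 0.12, adjusted p = 0.210), Nptx2 under iTBS at 2 h (-0.28, SE 0.10, adjusted p = 0.380) and Sik1 under 1 Hz at 48 h (-0.89, SE 0.39, adjusted p = 0.306). For Sik1 the levels of 1 Hz at 48 h were -0.82 in A, 1.56 in B, 1.55 in C and 1.58 in D, so that 1 array stood apart. That array, replicate 1, also had the lowest Plk2 of all (1.92) and the lowest Homer1 (5.42), and the 75th percentile of its signal was 18416 against at most 9939 on the other arrays. On a single slide, where pairs of the same series and time were scanned together, 8 pairs of 1 Hz and 9 of iTBS remained: Arc was above sham in 2 and 4 of them and Npas4 in 6 and 2. Among these, the Npas4 pairs of C at 0 and 8 h were below background in both arrays. The same held for D at 8 h under 1 Hz, and for B at 24 h and A at 48 h under iTBS. The sign of all these pairs carries no order.

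The protocols were also set against each other. Of 35 comparisons of 1 Hz with iTBS at the same time, none reached the threshold (0 passed) and the unadjusted p was under 0.05 in 1 (smallest adjusted p 0.571), while 0%, 0.00280% or 0.00560% of all probes passed. Within series and time 3 had an unadjusted p under 0.05. The member with the smallest adjusted p was Nptx2 at 48 h, which was 0.48 lower under 1 Hz than under iTBS (SE 0.10, adjusted p = 0.103). Its levels were 3.55 and 4.01 in series A, 3.66 and 4.28 in B, 2.62 and 2.88 in C, and 2.97 and 3.54 in D. In each of the 4 series the 1 Hz array was the lower.

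Untreated controls differed from sham at 0 h in 0 of 7 members, with 0 under an unadjusted 0.05 and 2 probes in all that passed (0.00560%). Controls were in series A and C, with 2 arrays each. In both series the mean of the controls was below the sham array for Arc, Npas4, Homer1, Rgs2, Plk2 and Sik1, and Nptx2 was below in 1 of them. In C at 0 h Npas4 was below background on all 5 arrays, so its order there cannot be read. In series A, Npas4 was at -0.62 and -1.61 in the controls and -0.36 in sham. The model with series gave Npas4 a difference of -1.21 (95% interval -3.16 to 0.74) and Plk2 one of -0.33 (-0.96 to 0.30). The Npas4 value rests in part on the arrays of C below background, so its size is uncertain. Each sham group at 0 h had 1 array in each series, so the spread of sham within a series was not measured.

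Averaged over the arms and series, the members that differed from 0 h at a given time were lower. With the 3 arms averaged and series as a term, all 7 members passed the test of any change over time, against 27% of all probes, with adjusted p from 0.000433 in Rgs2 to 0.0318 in Sik1. Against 0 h, 0 members and 0% of all probes passed at 2 h. Npas4 and Rgs2 were lower at 8 h (0.683% of all probes were called lower), and Rgs2 was lower at 24 h (5.39%). Homer1, Rgs2, Plk2 and Sik1 were lower at 48 h (13.4%). No member was called higher than at 0 h at any of these times in this fit over all series. The median change over the members was -0.04, -0.36, -0.47 and -0.62 at 2, 8, 24 and 48 h, and that over all probes between -0.04 and 0.00.

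**Figure D3:**
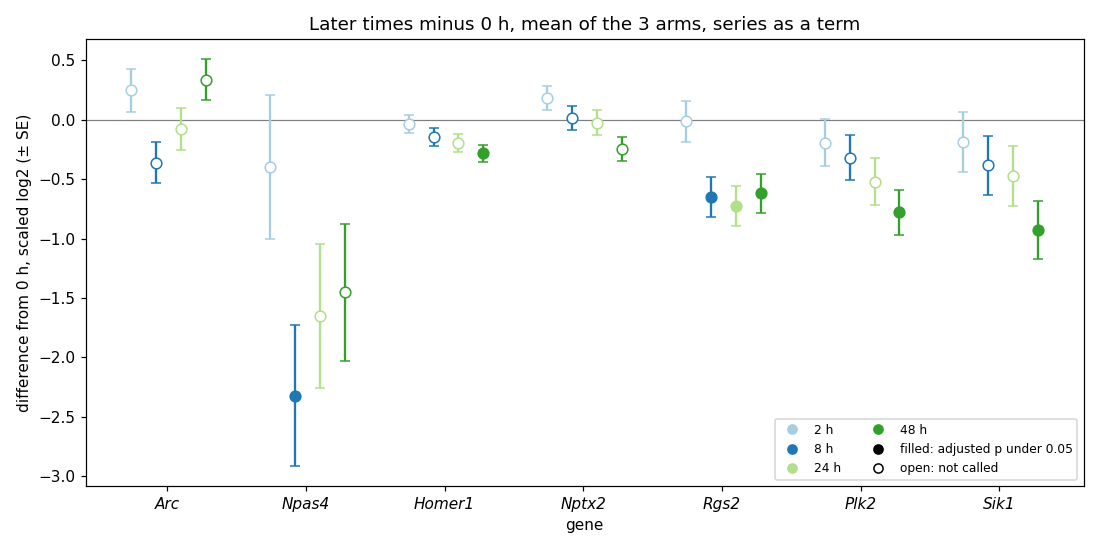
Difference from 0 h on the scaled log2 scale, with SE (vertical axis), of each member (horizontal axis) at 2, 8, 24 and 48 h, as the mean of sham, 1 Hz and iTBS with series as a term. Filled points passed, namely Npas4 and Rgs2 at 8 h, Rgs2 at 24 h, and Homer1, Rgs2, Plk2 and Sik1 at 48 h, and each of these is below 0.

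Rgs2 was the member that was lower at 3 times. Its levels at 0 h ran from 3.74 to 5.24 (median 4.92, n = 11), at 8 h from 3.66 to 4.84 (median 3.94, n = 10), at 24 h from 3.58 to 4.41 (median 3.90, n = 9) and at 48 h from 3.58 to 4.43 (median 4.20, n = 11). The low values at 0 h were the 3 arrays of series C. The change of Rgs2 was -0.65 at 8 h (SE 0.17, adjusted p = 0.0256). It was -0.73 at 24 h (SE 0.17, adjusted p = 0.00317) and -0.62 at 48 h (SE 0.16, adjusted p = 0.00472).

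Npas4 was at or near background 8 h after stimulation. The probe exceeded background on 8 of 11 arrays at 0 h and on 7 of 10 at 2 h. It did so on 0 of 10 arrays at 8 h, and later on 4 of 9 (24 h) and 5 of 11 (48 h). The fitted change at 8 h was -2.32 (SE 0.59, adjusted p = 0.0231). Since no array at 8 h was above background, the drop was also given as a bound, in which the 8 h arrays were set at the higher of the probe's own level and the lowest level of any probe well above background on that array. By this bound Npas4 at 0 h was 6.83-fold higher than at 8 h in B and 4.89-fold in D. In A, the 1 array at 8 h read above the lowest level used for the bound, yet was not above background. The 3.51-fold of A is therefore the measured reading, and the bounds for B and D are approximate rather than strict lower limits. In series C Npas4 was below background at both times, so no fold is given for C or over all series.

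Homer1 fell by a small amount with little spread. It was -0.28 at 48 h (SE 0.07, 0.823-fold, adjusted p = 0.00355), with levels of 5.67 to 6.25 at 0 h and 5.42 to 5.90 at 48 h. Which of the Homer1 transcripts, the short activity-induced form or the long forms, the probe reads was not determined. Plk2 was -0.78 at 48 h (SE 0.19, 0.583-fold, adjusted p = 0.00191), and its 11 arrays ran from 1.92 to 4.65 at 48 h against 3.83 to 4.99 at 0 h. Sik1 was -0.93 (SE 0.24, adjusted p = 0.00404), from -0.82 to 2.45 at 48 h against 1.67 to 2.65 at 0 h. Ranges overlapped between 0 and 48 h for each of these genes. Without the array of 1 Hz at 48 h replicate 1, which had the lowest value in all 3 genes, each of these calls still passed, and over the arrays left out in turn the change at 48 h ran from -0.90 to -0.60 in Plk2 and from -1.02 to -0.72 in Sik1.

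Arc and Nptx2 passed in the test over all times with no single time that passed. Relative to 0 h, Arc was 0.25, -0.36, -0.08 and 0.34 for the later times in order (SE 0.17 to 0.18), and Nptx2 was 0.18, 0.01, -0.02 and -0.24 (SE 0.10).

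The time changes rested on the model and on single arrays. Without series as a term, 1 of 7 members passed the test over time (Rgs2), and with the slide as an added term 3 did (Homer1, Nptx2 and Plk2). In sham alone 0 of 7 passed, with an unadjusted p under 0.05 in 3, against 3.30% of all probes that passed. The call of Npas4 at 8 h was lost without sham at 0 h replicate 1, sham at 8 h replicate 3, 1 Hz at 0 h replicate 1, iTBS at 0 h replicate 1 or iTBS at 8 h replicate 1, and that of Rgs2 at 8 h without any of these or without sham at 8 h replicate 1 or 1 Hz at 0 h replicate 3. No slide held 0 h together with 24 or 48 h of the same series, so that time and slide largely cannot be told apart. On the slide that held 0 and 8 h of series B, Rgs2 was -1.21 at 8 h relative to 0 h, with 1 array at 8 h.

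Cell type markers moved over the same times. At 48 h, where 13.4% of all probes were lower and 13.6% higher than at 0 h, 3 of 7 neuron markers were lower, Map2 by -0.64 (SE 0.19, adjusted p = 0.0104), Tubb3 by -0.63 and Stmn2 by -0.38, and 4 of 6 astrocyte markers were higher, with Gfap at 1.64 (SE 0.22, adjusted p = 5.55e-07), Aqp4 at 1.04 and Gja1 at 0.70. Summed neuron markers ranged from 104 to 191 at 0 h and from 93.5 to 132 at 48 h, and summed astrocyte markers from 77.7 to 153 and from 104 to 241. Their part in the fall of the members was not tested.

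The time course differed between the series, in a test added after the data were seen. The test of this difference passed for Npas4 (adjusted p = 4.78e-06), Rgs2 (adjusted p = 0.000418), Arc (adjusted p = 0.00867) and Nptx2 (adjusted p = 0.0221), 4 of 7 members against 41.9% of all probes. Plk2 (0.0561), Homer1 (0.0652) and Sik1 (0.139) did not pass.

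In series A, Npas4 stood at -0.36 in sham and -1.58 in iTBS at 0 h and at 2.15 in sham and 1.77 in iTBS at 2 h, a rise of 2.83 (SE 0.68, adjusted p = 0.00765). Arc rose there from 4.63 and 4.18 to 5.82 and 5.69, by 1.21 (SE 0.28, adjusted p = 0.00579). The rise was seen in the sham array as well as in iTBS. At 2 h in series A, 3.73% of all probes were called higher and 4.53% lower. In the other series neither gene passed at 2 h, where 0.0252% of all probes passed in B, 0.00280% in C and 0% in D. Npas4 in sham went from -0.32 to -0.77 in B and from -1.03 to -0.52 in D.

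Npas4 fell from 0 to 8 h in series A, B and D. At 8 h it passed as lower in B (adjusted p = 0.000108), where 3.70% of all probes were called lower, and in D (adjusted p = 0.0240), where 0.154% were. The bounds are given above. Series A held 1 array at 8 h, of 1 Hz, at -2.78 and below background, against a mean of -0.97 at 0 h (fitted change -2.02). After 8 h the level of Npas4 parted between B and D. In B the level stayed below background at 24 and 48 h. By the same approximate bound 0 h was 11.4-fold higher than 24 h and 10.7-fold higher than 48 h. In D the 3 arrays at 24 h were back above background, at -1.62 in sham, -0.72 in 1 Hz and -1.64 in iTBS. Rgs2 was lower at 24 h in B (-1.05) and D (-0.75), and at 48 h in A (-1.16), B (-0.82) and D (-0.65), with adjusted p from 5.04e-05 to 0.0147. In A it was -1.15 at 24 h, where that series held 1 array, of 1 Hz. Of all probes, 14.4% in B and 8.94% in D were called lower at 24 h. At 48 h the shares called lower were 9.21% in A, 18.2% in B and 10.7% in D. Plk2 was lower at 48 h in A (-1.42) and B (-1.32), and so was Homer1 (-0.47 and -0.48). In A at 48 h Npas4, Nptx2 (-0.59) and Sik1 (-1.20) were lower too. Arc was 0.87 higher in A at 48 h (SE 0.25, adjusted p = 0.0126), where 11.9% of all probes were called higher. This time holds 1 Hz at 48 h replicate 1, the array that stood apart. Without it, a setting chosen after seeing the data, Plk2 was -0.66 (adjusted p = 0.00195) and Homer1 was -0.34 (adjusted p = 0.0308) in A at 48 h, and Rgs2 and Npas4 passed as lower (both adjusted p = 0.00116), while Sik1 (-0.33, adjusted p = 0.580), Nptx2 (-0.49, adjusted p = 0.0547) and Arc (0.61, adjusted p = 0.134) no longer passed. In series C 0 of 7 members passed at any time, while 7.41% of all probes passed there at 48 h.

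**Figure D4:**
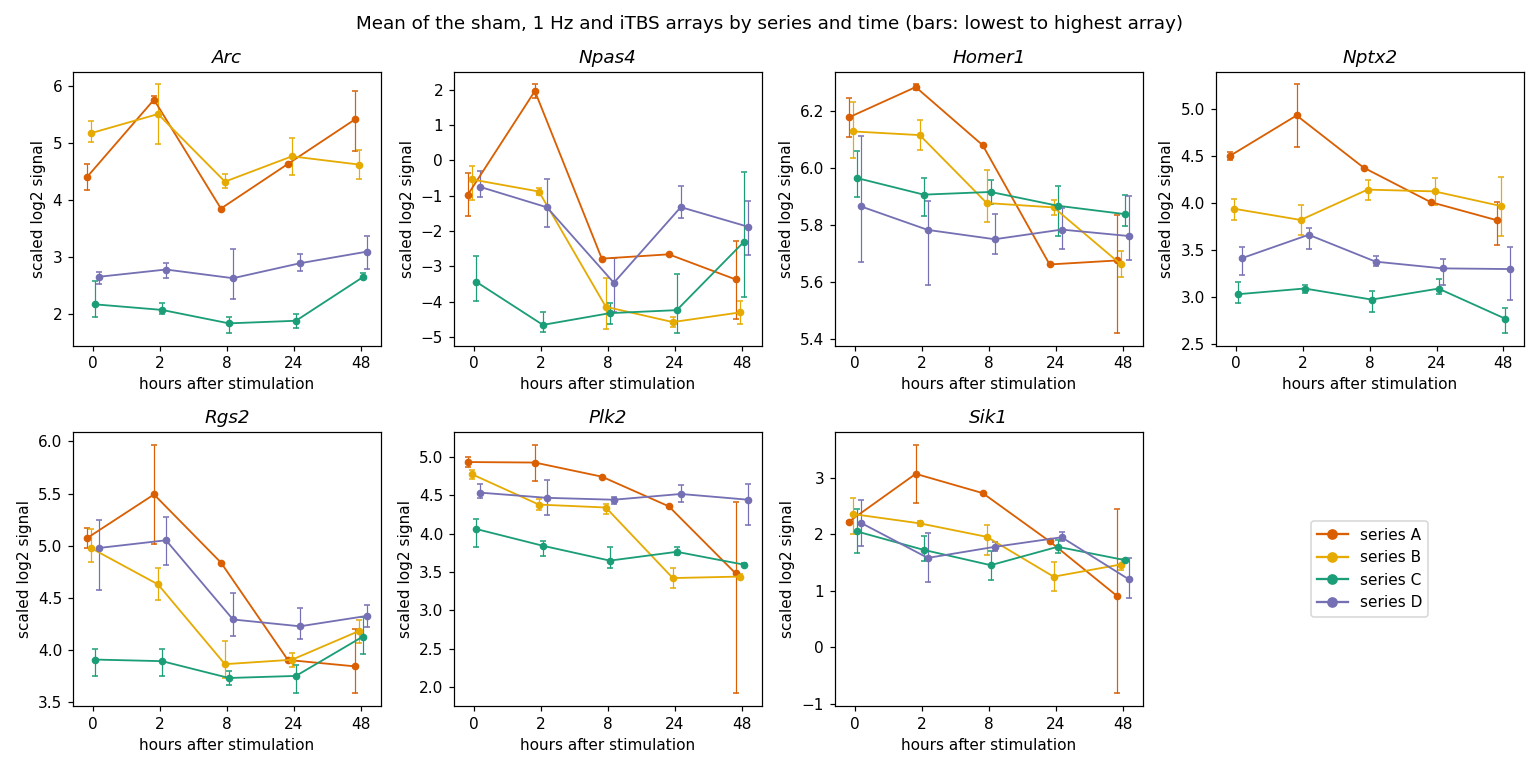
Mean scaled log2 signal of the sham, 1 Hz and iTBS arrays (vertical axis) by hours after stimulation (horizontal axis), 1 line per series, with bars from the lowest to the highest array. Npas4 is highest at 2 h in series A and lower at 8 h than at 0 h in A, B and D, with 1 array at 8 h in A. In C a single array (1 of 17) exceeded background, and the lines of Arc for A and B lie above those for C and D at every time.

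The wider lists are given beside the background of all probes, of which 27% passed over time and 13.4% were lower and 13.6% higher at 48 h. Of 21 activity-regulated transcription factors 6 passed the test over time, a share near that background, and 4 were lower at 48 h and 0 higher, led by the nuclear receptors Nr4a2 (-1.20, SE 0.21, adjusted p = 5.80e-05) and Nr4a3 (-1.02) and by Fosl2 (-0.69). At 8 h 2 were lower, Nr4a2 (-0.79) and Egr4 (-0.70), against 0.683% of all probes. Of 16 other effectors 5 passed over time and 3 were lower at 48 h, namely the phosphatases Dusp1 (-0.69), Dusp6 (-0.45, SE 0.09, adjusted p = 0.000136) and Dusp5 (-0.36). At 24 h 3 were lower, against 5.39% of all probes, among them Bdnf, a neurotrophin (-0.69, SE 0.23, adjusted p = 0.0417). The medians of these lists at 48 h were -0.35 and -0.21.

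Of the 36 relatives and partners of the members, 15 passed over time. At 48 h 4 were higher, a share below that of all probes, among them Homer3 at 0.43 (SE 0.08, adjusted p = 0.000119) and Npas2 at 0.36, and 8 were lower, with the G protein subunits Gna11 (-0.77) and Gnaq (-0.59), which Rgs2 acts on, and Nptx1 (-0.58, SE 0.13, adjusted p = 0.00137). Homer1 and Homer3 stood on opposite sides of 0 at 48 h. The median of this list at 48 h was -0.10.

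Across the 55 arrays the members varied together in groups, given here as a description of arrays that share series, slides and times. The highest correlations were 0.81 between Arc and Nptx2, 0.81 between Npas4 and Rgs2, 0.73 between Plk2 and Sik1 and 0.71 between Homer1 and Sik1. With the mean of each series taken off, Arc and Nptx2 stood at -0.11, while Npas4 and Rgs2 were at 0.73, Plk2 and Sik1 at 0.83, and Homer1 at 0.74 with Plk2, 0.73 with Sik1 and 0.71 with Rgs2. With the mean of each series and time taken off, Npas4 and Rgs2 were at 0.20, Homer1 and Rgs2 at 0.47, Homer1 and Plk2 at 0.57, Homer1 and Sik1 at 0.63 and Plk2 and Sik1 at 0.84. The array of 1 Hz at 48 h replicate 1, which stood apart, had the lowest Plk2, Sik1 and Homer1 of all arrays. It enters these correlations, and values without it are not given. Since Npas4 was above background on 26 of 55 arrays, its correlations in part read background.

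**Figure D5:**
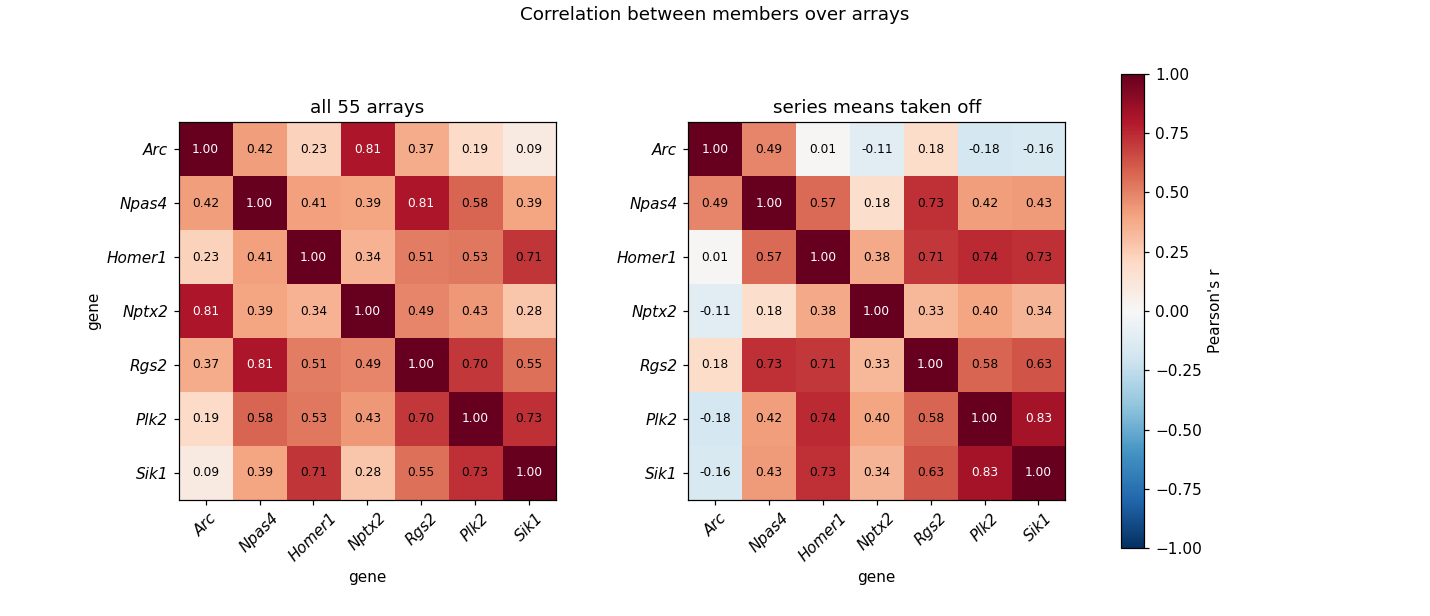
Pearson correlation (colour and printed value, from -1 to 1) between the members (both axes) over the 55 arrays, on the left for the levels and on the right with the mean of each series taken off. Arc and Nptx2 drop from 0.81 to -0.11. Plk2, Sik1, Homer1 and Rgs2 lie between 0.51 and 0.73 with each other on the left and between 0.58 and 0.83 on the right. The array of 1 Hz at 48 h replicate 1, lowest of all in Plk2, Sik1 and Homer1, is included.

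The genes whose level over the 55 arrays was most like that of each member were taken from 10523 genes. For Arc they were Dusp5 (r = 0.89), Tex10 (0.87) and Vgf (0.86), and for Nptx2 Vgf (0.92), Fgfr1 (0.90) and Slit3 (0.88). For Npas4 they were Fos (0.83), Per1 (0.82) and Rgs2 (0.81), and for Rgs2 Kcna4 (0.84), Nppc (0.84) and Egr4 (0.81). For Homer1 they were Nr4a2 (0.79), Nr4a3 (0.74) and Myo5a (0.74), for Plk2 Kif5c (0.91), Dpysl3 (0.91) and Wscd2 (0.89), and for Sik1 Neto2, Stox2 and Exoc8 (0.81 to 0.79). With series means taken off, Nr4a2 led for both Homer1 (0.82) and Rgs2 (0.83), Mat2a led for Plk2 (0.92) and Klf4 for Npas4 (0.81), whose values below background enter these correlations too.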

How the data were processed

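Total RNA of 56 cultures was labelled with Cy3 and hybridised to 1-colour Agilent rat arrays of 62976 spots. Per the file headers, the deposited scanner files hold processed signal intensity, from which Feature Extraction had already subtracted background, and the authors' deposited value table holds z-scores, a score of each log value within its array. Columns of the authors' own comparisons were not used. From the intensities, log2 values were averaged over the spots of a probe, z-scored within each array and multiplied by the median array SD (4.06). The deposited score values differed from these z-scores by at most 0.005. The array of 1 Hz at 2 h replicate 2 was left out for its bad grid. Probes with a missing value (420) and probes well above background on under 3 arrays (9479) were dropped, which left 35699 probes.

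Linear models were fitted with limma 3.58.1 in R 4.3.3 and tested two-sided, with Benjamini-Hochberg adjustment over all probes at 0.05. Protocols were compared with sham in a fit of group means (39 residual degrees of freedom), with no block, since the methods of the study name none, and with series as a term (36) or each series at each time as a block (24). Times and series were compared with series as a term. The fits were tested on simulated data. Other scalings, background correction, filters, blocks and sets of arrays were tried as alternatives. Gene symbols came from a RefSeq table through the accession of each probe. The named genes were the 7 members, up to 3 genes in each direction with the largest change in each list and comparison, and the 3 genes most like each member. The members and lists were chosen with earlier results of these data known.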

Additional observations from a re-analysis of the deposited data

Results flagged for a closer look

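In groups of 4 arrays, 2 of 56 tests of a gene in a group found an array far from the others, where chance gives about 1 in 20. Rgs2 in iTBS at 0 h had a gap of 0.856 of the range of the group, with replicate 2, of series C, at 3.74 and the others between 4.92 and 5.11. Sik1 in 1 Hz at 48 h had a gap of 0.988 of the range, with replicate 1, of series A, at -0.82 and the others between 1.55 and 1.58.

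The change over time differed between the series for Npas4 (adjusted p = 4.78e-06), Rgs2 (adjusted p = 0.000418), Arc (adjusted p = 0.00867) and Nptx2 (adjusted p = 0.0221), by the limma interaction of series and time.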

How the results depend on the processing

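Quantile normalization, scaling to the 75th percentile and no filter on dim probes left each count of members within 1.5 times its value. With normexp background correction 1 member was lower at 8 h, and with the mean of the probes of a gene 2 were lower at 24 h. With the slide as a block 3 members changed over time and 0 were lower at 8 h, and without a series term 1 changed over time and 0 were lower at 8 and at 24 h. Leaving out whole series was chosen after seeing the data. Members that changed over time were 4 without series A, 3 without B, 2 without C and 2 without D; lower at 24 h were 2, 0, 2 and 0; lower at 8 h were 0 without B and 0 without D; lower at 48 h were 2 without D; and 2 differed in time course without C. With all 56 arrays, the badly gridded one included, 4 members differed between protocol and sham, 5 between 1 Hz and iTBS, 2 between series, 1 over time and 1 in time course, with 0 lower at 8 h, 0 lower at 24 h and 1 lower at 48 h, and Homer1 for A minus D (-0.55) and Nptx2 for A minus B (-0.17) turned sign. With all 56 arrays, the calls between protocols or against sham were all at 2 h and involved 1 Hz, the group of the badly gridded array. On that array Arc, Npas4, Homer1, Nptx2 and Rgs2 had the same level of -2.39. The share of all probes called in that setting is not given. Why the counts of the settings moved was not tested, beside the fewer arrays of each reduced set.

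Replicate numbers of the titles did not pair the arrays: 57 pairs of the same number and time had a mean correlation of 0.219 after removal of group means, from -0.462, with 35 over 0.1. With the replicate block 2 members differed in time course between series, 5 were lower at 48 h, 7 changed over time and 0 differed between protocol and sham. Leaving out 1 array at a time gave 5 to 7 members for series, 6 to 7 for time, 0 to 2 lower at 8 h, 1 to 3 lower at 24 h, 4 to 5 lower at 48 h and 3 to 7 in time course, and 0 to 0 for protocol against sham, 1 Hz against iTBS, control against sham and time in sham. By the methods' criteria, as applied here to z-scores of probes, 0 members and 0 to 13 probes per comparison differed between protocol and sham. Without 1 Hz at 48 h replicate 1, 3 members were lower at 24 h and 7 differed in time course. Npas4 was above background on 26 of 55 arrays, so its low values carry no order.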
